A study of Mus musculus with 6 samples.

Results

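The subject is the baseline transcriptome of mouse embryonic stem cells kept with MEK and TGF-beta receptor inhibitors, as seen in the R2i control cultures, 3 of the 6 libraries of the study. Members were taken by their group label. The line, Royan B20, grew on 0.1% gelatin with LIF and had been passaged 7 times in R2i, in which MEK is blocked by 1 µM PD0329501 (the labels' spelling) and 10 µM SB431542 blocks the type I receptors for activin, nodal and TGF-beta. The other 3 libraries carried noggin and dorsomorphin in addition and are not compared here. RNA was poly(A)-selected and prepared with a kit that preserves strand. The labels describe the 3 libraries as biological replicates of 1 cell line and do not say whether they were separate cultures, so an SD measures only the spread between these samples. No culture without the inhibitors is among the libraries, so no level below can be set against an uninhibited state.

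Embryonic stem cells are the cultured counterpart of the early epiblast. In the mouse they are held in the naive state by LIF, which acts through the LIF receptor, gp130 and STAT3, and by blocking the FGF-MEK-ERK chain that drives them towards lineage commitment. Activin and nodal signal through SMAD2 and SMAD3, and BMPs through SMAD1, SMAD5 and SMAD9, whose best known targets in these cells are the Id genes.

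The control libraries held 33507205, 35322844 and 32720441 counts assigned to genes, and 22571, 22790 and 22363 genes had at least 1 count. Levels between genes are given as TPM, computed here from the deposited counts and the exon length of each gene and scaled to the same total in every library. Levels are means with the SD over the 3 libraries (n = 3) unless each library is given. Genes with no count in any library are termed silent, and detected genes were classed as trace (under 0.1 TPM), rare (0.1 to under 1), low (1 to under 10), moderate (10 to under 100), high (100 to under 1000) or abundant (1000 and over). A gene counts as on when it reached 1 TPM in each of the 3 libraries. A gene with no count may still have up to 3 counts of the pooled total, or 0.0295 CPM (counts scaled to library size), which covers counting error only.

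Of the cluster microRNAs known from early embryonic cells, the loci of the miR-290 to miR-295 cluster on chromosome 7 gave reads and those of the miR-302 cluster on chromosome 3 gave almost none. MicroRNAs are small RNAs that silence messages matching their seed, bases 2 to 8 of the mature form. The mature sequences are shown because the cluster with reads and the one without share a seed. They are from RefSeq (GRCm38.p6), 5′ to 3′, with the seed in capitals.
miR-291a-3p: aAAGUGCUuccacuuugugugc
miR-294-3p: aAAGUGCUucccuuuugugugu
miR-295-3p: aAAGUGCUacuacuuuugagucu
miR-302b-3p: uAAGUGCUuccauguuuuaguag
miR-302d-3p: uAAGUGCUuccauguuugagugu
miR-290a-3p: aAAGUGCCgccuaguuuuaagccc
miR-291b-3p: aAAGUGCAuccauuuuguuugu
miR-293-3p: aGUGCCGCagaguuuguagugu
miR-302c-3p: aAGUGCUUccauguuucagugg
The first 5 have the same seed, AAGUGCU, and the last 4 each have a seed of their own. Among the seed-sharing loci of chromosome 7, the Mir295 hairpin held 189, 228 and 190 counts, Mir294 held 104, 102 and 91, and Mir291a 37, 32 and 39. The order of these 3 loci was the same in each library, with no overlap between neighbours. Mir302b and Mir302d, with the same seed, held 0 counts in every library, as did Mir302a and Mir302c, and their neighbour Mir367 held 0, 3 and 0. Mir293 held 115, 128 and 133 counts, Mir291b 73, 66 and 68, Mir292 66, 66 and 47, and Mir290a 24, 34 and 30. The sequences of miR-292-3p and miR-302a-3p were not among the RefSeq sequences used, so their seeds are not shown. These counts come from fragments of poly(A) RNA that cover the hairpin, so they describe the primary transcript and not the level of the mature microRNA. Mir290b, annotated on the opposite strand of Mir290a, held 0 counts. The Mir291a to Mir295 loci overlap exons of Nlrp12 on the opposite strand, and the strand setting of the counting was not given in the sources used here. Of 2207 annotated microRNA genes, 286 had a count and 56 had 10 or more over the 3 libraries, and 1032 matched the RefSeq table by symbol.

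Most protein-coding genes were on, and silent genes were the next largest class after the moderate one. Of 21942 protein-coding genes, 5161 (23.5%) had no count in any library, 2023 were trace, 2347 rare, 3394 low, 6864 moderate, 2056 high and 97 abundant. A total of 12157 (55.4%) were on. The 97 abundant genes held 19.4% of the protein-coding TPM and the 2056 high genes 50.7%, while the 4370 trace and rare genes held 0.106% in all. Non-coding classes were mostly silent, at 69.1% of 5248 lincRNA genes and 53.7% of 2774 antisense genes, with 330 and 230 of them on. Over all 53360 genes, 27744 were silent and 14019 on, and 856 genes held 50% of the TPM.

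**Figure D1:**
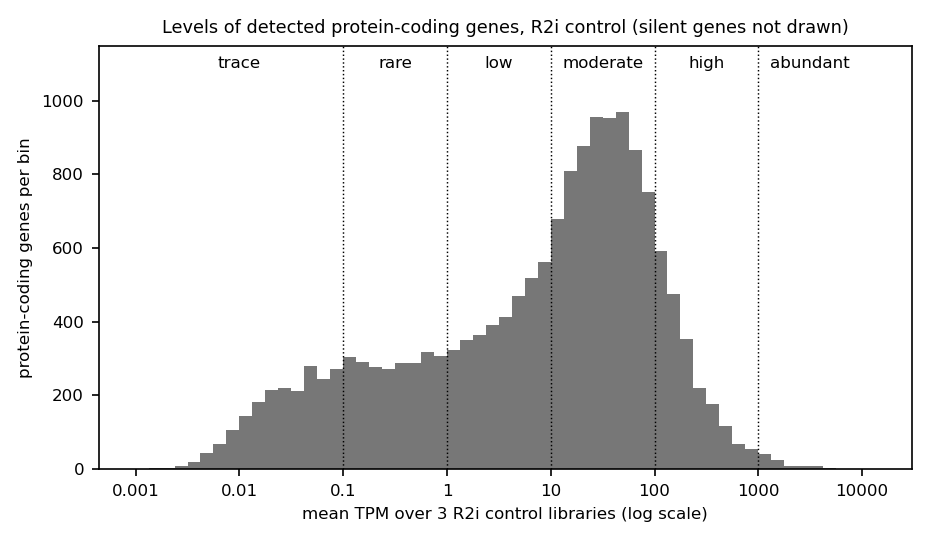
Histogram of the mean TPM over the 3 R2i control libraries (log axis) for the 16781 protein-coding genes with at least 1 count; the 5161 silent genes are not drawn and dotted lines mark the level classes. The peak lies in the moderate class, with 6864 genes, and a long shoulder runs through the 2347 rare and 2023 trace genes.

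The most abundant messages encode translation and respiration machinery. The 10 protein-coding genes highest in TPM were mt-Co1 (7757), Eef1a1 (6170.2), mt-Cytb (5580.0), Rplp1 (5531), mt-Nd1 (4515), Ftl1 (3995), Hsp90ab1 (3951), Rplp0 (3542), Rps15 (3519) and Rpl4 (3411 TPM). They are 3 mitochondrially encoded respiratory subunits, a translation elongation factor, 4 ribosomal proteins, the ferritin light chain and a cytosolic chaperone. Ranked by counts, which favour long messages, Eef1a1 led with 435877 counts over the 3 libraries. Fn1, the matrix protein fibronectin, stood ninth by counts with 198390, and at 598 ± 16.4 TPM it was outside the abundant class. All 86 cytosolic ribosomal protein genes were on, 44 of them abundant, and together they took 4.91%, 4.72% and 4.99% of the counts. Mitochondrially encoded genes took 0.991%, 0.929% and 0.999%. For both groups replicate 2 was lowest. The genes for subunits 2 and 3 of cytochrome oxidase and subunit 6 of ATP synthase read low, at 40.8 (mt-Co2), 41.8 (mt-Co3) and 30.0 TPM (mt-Atp6). Reads that align to several places entered no gene's count, and at most 0.47% of the 50-base stretches of these 3 genes occur in no other annotated gene, so their values are uncertain. For mt-Co1, Ftl1, Rplp1 and Eef1a1 that share was 48.86%, 41.56%, 40% and 59.64%, so reads shared with near-identical copies may be missing from these too. Replication-dependent histone genes, whose main messages lack a poly(A) tail, took 0.00493%, 0.00508% and 0.00495% of the counts.

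Promoters of silent genes were poor in CpG and those of abundant genes rich. CpG-rich promoters are typical of genes used in many tissues and of developmental regulators. The 250 bases before the RefSeq start were read for 16504 protein-coding genes that matched by symbol, taking the first start listed. The motif CG, which reads the same on both strands, was counted, and a promoter was taken as CpG-rich at an observed over expected CG count of 0.6 or more. Of 3593 silent genes 3.53% were CpG-rich, against 18.9% of trace, 34.4% of rare, 51.4% of low, 73.2% of moderate, 79.9% of high and 87.9% of abundant genes, and 46.7% of all 16504. The median CG count rose from 1 in silent genes to 17 in moderate and abundant genes. Large sensory receptor families make up part of the silent class. Of 931 olfactory receptor genes with a start, 0.859% were CpG-rich. The 4 sequences below (RefSeq, GRCm38.p6, 5′ to 3′ on the gene's strand, CG in capitals) show the 4 combinations. Eef1a1 (chr9:78481725-78481974, minus strand) is abundant with 18 CG, Pou5f1 (chr17:35505782-35506031, plus strand) abundant with 8, Gata5 (chr2:180334680-180334929, minus strand) silent with 22 and Prl3d1 (chr13:27093939-27094188, plus strand) silent with 3.
Eef1a1: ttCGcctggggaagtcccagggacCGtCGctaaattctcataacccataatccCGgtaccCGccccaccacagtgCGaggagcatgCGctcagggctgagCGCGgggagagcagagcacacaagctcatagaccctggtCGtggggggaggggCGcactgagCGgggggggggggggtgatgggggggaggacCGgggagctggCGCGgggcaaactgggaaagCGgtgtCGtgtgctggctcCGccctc
Pou5f1: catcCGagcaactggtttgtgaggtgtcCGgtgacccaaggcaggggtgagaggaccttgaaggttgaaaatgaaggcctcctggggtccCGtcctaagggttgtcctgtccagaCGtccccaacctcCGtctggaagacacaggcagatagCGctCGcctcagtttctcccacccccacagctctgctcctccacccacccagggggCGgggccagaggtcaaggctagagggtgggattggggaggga
Gata5: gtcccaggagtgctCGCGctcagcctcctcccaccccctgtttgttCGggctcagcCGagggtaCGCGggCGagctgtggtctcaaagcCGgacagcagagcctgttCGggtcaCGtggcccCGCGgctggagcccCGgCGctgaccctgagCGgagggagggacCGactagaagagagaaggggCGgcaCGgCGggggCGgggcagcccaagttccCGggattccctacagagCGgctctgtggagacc
Prl3d1: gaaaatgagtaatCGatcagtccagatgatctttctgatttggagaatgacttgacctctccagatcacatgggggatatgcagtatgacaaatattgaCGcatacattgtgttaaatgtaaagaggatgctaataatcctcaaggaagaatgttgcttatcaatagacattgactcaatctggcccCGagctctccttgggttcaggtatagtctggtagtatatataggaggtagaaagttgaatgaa
Gata5, a heart and gut transcription factor, is 1 of 127 silent genes with a CpG-rich promoter. Prl3d1, a placental lactogen, belongs to the prolactin family, of which 0 of 22 genes with a start were CpG-rich. Among the pluripotency regulators described next, 5 of 10 general and 7 of 14 naive genes with a start had a CpG-rich promoter. Of the 66 abundant genes with a start, 58 did.

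The pluripotency network was on in full. All 16 genes of the general list and all 18 of the naive list were on, with medians of 344 and 194 TPM. Of the core factors that maintain pluripotency, Nanog stood at 1444, 1441 and 1447 TPM, Pou5f1 at 1332, 1304 and 1383, and Sox2 at 785, 791 and 800.5. Nanog was above Pou5f1, and Sox2 below both, in each library, with no overlap. Nanog (ENSMUSG00000012396) lies on chromosome 6 at 122707489 to 122714633, Pou5f1 (ENSMUSG00000024406) on chromosome 17 at 35506018 to 35510772, and Sox2 (ENSMUSG00000074637) on chromosome 3 at 34650405 to 34652461. Dppa5a, an RNA-binding stem cell marker, was higher still at 1919 ± 99.6 TPM, as was Trim28, a corepressor of retroelements, at 1759.8 ± 21.1. With the longest transcript in place of the exon union as length, Pou5f1 was at 1649 TPM and above Nanog at 1092, so their order rests on the length used. An antisense gene, Gm19553, overlaps Pou5f1 and held 28, 30 and 10 counts against 28060, 28799 and 28508.

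Of the 18 factors of the naive state 13 were in the high class, 4 moderate and 1 low. Klf4, a target of LIF signalling, was at 729.7, 750.4 and 741 TPM, and Klf2 at 654, 676 and 645. Esrrb, an orphan nuclear receptor of the naive network, was at 619 ± 3.37 TPM. Klf4 exceeded Klf2, and Klf2 exceeded Esrrb, in each library. Zfp42 (Rex1) was at 254 ± 4.14 TPM, Tbx3 at 152 ± 1.55 and Prdm14, which represses DNA methylation and FGF signalling genes, at 97.1 ± 4.02. Dppa3 (Stella), a protector of maternal methylation in the early embryo, was lower at 42.8, 45.5 and 39.7 TPM. Gbx2, a STAT3 target, was the low one at 7.48 ± 0.293. Genes linked to the formative and primed states were mixed, with 15 of 18 on and a median of 14.1 TPM. Etv5 (165 ± 0.827), Dnmt3b and Zic2 (73.1 TPM) led them and Otx2 stood at 17.9. Fgf5, the usual marker of primed cells, had 2 counts in each library (0.0847 TPM), and Lef1 was at 0.862, 0.857 and 0.831 TPM.

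The LIF pathway had its receptor pair and transducer at moderate levels. The pathway's ligand gene Lif was at 10.4, 9.06 and 9.83 TPM in these cells, which also receive LIF from the medium. Lifr, the ligand-binding chain, stood at 35.9, 36.3 and 35.6 TPM, and Il6st, which encodes its partner gp130, at 36.6, 37.3 and 36.6. Il6st was 1.02 times Lifr on average (1.019 to 1.027 in the 3 libraries), and 1.17 times with the longest transcript as length. How close the 2 chains of the receptor lay thus rests on the length used. The related receptor chain Osmr was near absent, with 3, 4 and 4 counts (0.0320 TPM), while Cntfr was at 21.3 ± 2.28. Of the kinases, Tyk2 (35.9 TPM), Jak1 (28.8, 29.9 and 28.2) and Jak3 (27.9 TPM) stood close together and Jak2 was at 5.81. Stat3, the transducer that sustains self-renewal, was at 56.3, 58.3 and 56.5 TPM, below Stat6 (66.8 TPM). Socs3, the feedback inhibitor that STAT3 induces, was at 149.6, 159 and 150.2 TPM, the highest of its list of 8 feedback genes, all of which were on.

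In the FGF-MEK-ERK pathway the ligand gene was high, the receptor moderate and the kinases present, while immediate early response genes ranged from trace to moderate. Fgf4, the autocrine ligand of these cells, was at 602, 595 and 589 TPM. It was the highest of 22 FGF ligand genes, of which 6 were on, 15 trace or rare and 1 (Fgf7) silent. The next was Fgf11 at 11.6 TPM. Fgfr1 was at 39.6, 43.4 and 41.3 TPM and held 75.9% of the summed TPM of the 7 FGF receptor and co-receptor genes. Fgfr2 (2.17) and Fgfr4 (3.33) were low and Fgfr3 rare (0.790 TPM). Map2k1 and Map2k2 encode MEK1 and MEK2, the kinases inhibited in this medium. Map2k1 was at 189, 193 and 179 TPM and Map2k2 at 90.5, 89.6 and 86.9, a ratio of 2.10 ± 0.0456 with no overlap. With the longest transcript as length the ratio was 1.24, and Map2k2 moved from the moderate to the high class. The ERK gene Mapk3 was at 137 ± 4.99 TPM, and all 15 genes of the chain from adaptor to ERK were on.

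Genes known to respond to ERK fell on both sides of 10 TPM. Of 19, 17 were on, with a median of 13.0 TPM. The feedback inhibitor Spry2 was at 181, 183 and 180.5 TPM, and the phosphatase gene Dusp6 at 39.8, 36.3 and 35.3. The immediate early genes were uneven. Ier3 was at 23.3, 21.2 and 22.1 TPM, above the list's median, while Egr1 was at 1.19, 1.79 and 1.48 TPM, Fos at 5.74 ± 0.281 and Egr2 at 0.0626. Myc was at 3.93, 2.96 and 3.49 TPM, while its relative Mycn was at 214, 223 and 213, from 54.5 to 75.5 times higher. Without an uninhibited culture these values do not say how far MEK inhibition lowered any of them.

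The activin and nodal branch had ligand and receptor genes, and its feedback genes were low. Gdf3 and Nodal were the 2 of 15 ligand genes in the high class. Nodal was at 149, 149 and 153 TPM and Gdf3, which acts through the same receptors, at 209, 208 and 202. Of the others, Inhbb was the next at 3.91 TPM, Tgfb1 was at 2.64, and Inhba, which encodes the activin A subunit, was silent with Mstn. Gdf1 had no count either, but its exons are shared with Cers1, so its 0 says nothing of its level. Of the type I receptors that SB431542 inhibits, Acvr1b (ALK4) was at 92.9, 94.8 and 94.9 TPM, Tgfbr1 (ALK5) at 27.6, 26.7 and 27.4, and Acvr1c (ALK7) had no count. Acvr1b was 3.46 times Tgfbr1 (3.36 to 3.55), or 3.05 times with the longest transcript as length. Tdgf1, the co-receptor Cripto, was at 853 ± 9.48 TPM, the highest gene of the pathway. Tgfbr2, the type II receptor that TGF-beta needs, was rare at 0.613 ± 0.102 TPM on 46, 58 and 39 counts, while the activin type II receptors Acvr2b and Acvr2a were at 20.4 and 12.4. Lefty1 and Lefty2 encode nodal inhibitors that nodal signalling itself induces. Lefty2 was at 4.09, 2.73 and 3.88 TPM and Lefty1 at 1.70, 0.637 and 1.05, on 28, 11 and 17 counts. Replicate 2 was the lowest for both Lefty genes. Lefty1 was the least reproducible of the genes of the pathway shown here, and without replicate 1 its level of 1.13 ± 0.535 TPM fell to 0.846, in the rare class. Nodal exceeded Lefty1 by 87.6 to 233 times.

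The BMP branch had ligand, receptor and SMAD genes on, at moderate to low levels. Bmp4 was at 38.5, 39.7 and 41.3 TPM and Bmp7 at 8.34, 8.23 and 7.38. They were the top of 16 BMP ligand genes, of which 3 were on, 8 trace or rare and 4 silent (Bmp5, Bmp10, Gdf2 and Gdf6). Bmp2 was at 0.159 TPM. The type I receptor Bmpr1a was at 46.7, 45.0 and 45.4 TPM, while Acvr1 was at 6.72 ± 0.792 and Bmpr1b rare at 0.420. The type II receptor Bmpr2 was at 2.68, 2.93 and 3.01 TPM, so Bmpr1a was 16.0 times higher (15.1 to 17.4). With the longest transcript as length that ratio was 12.2. Amhr2, the type II receptor for anti-Müllerian hormone, was at 22.8 ± 1.45 TPM, above Bmpr2 in each library. Of the receptor SMADs, Smad5 (31.9, 31.9 and 32) and Smad1 (21.5) of the BMP branch and Smad2 (18.1) and Smad3 (17.5 TPM) of the nodal branch lay within a narrow range. Smad9 was rare at 0.151. Their shared partner Smad4 was at 101 ± 1.85 TPM. Among 15 secreted antagonists Fstl1 (88.2, 85.4 and 81.3), Twsg1 (38.5) and Dand5 (12.4 TPM) passed 10 TPM. Nog, the gene of the antagonist added in the other group, was rare with 1, 8 and 7 counts, and Cer1 and Chrdl1 were silent.

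The Id genes, the usual readout of BMP-SMAD activity, were all on and spread over an order of magnitude. Id3 was at 61.6, 63.5 and 63.8 TPM, Id2 at 28.8, 30.6 and 25.9, and Id4 at 13.3 ± 0.836. Id1 was the lowest at 4.05, 5.97 and 6.11 TPM on 44, 68 and 65 counts, 10.4 to 15.2 times below Id3. With the longest transcript as length Id3 was 16.4 times Id1. The order of the 4 genes was the same in each library. Id3 (ENSMUSG00000007872) lies on chromosome 4 at 136143497 to 136145755 and Id1 (ENSMUSG00000042745) on chromosome 2 at 152736251 to 152737410.

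**Figure D2:**
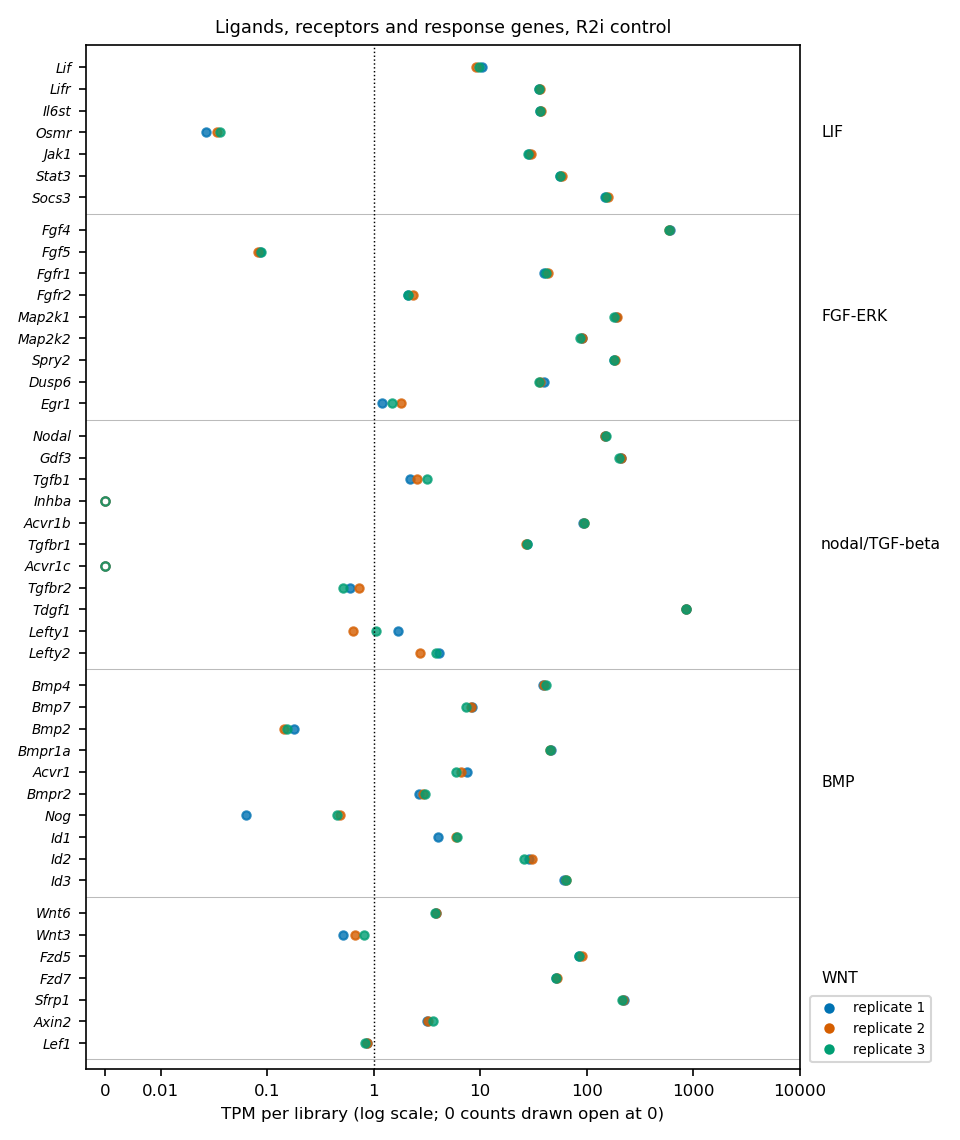
TPM (log axis) of ligand, receptor and response genes in each of the 3 R2i control libraries, one point per library, grouped by pathway; genes without a count are drawn open at 0 and the dotted line marks 1 TPM. Fgf4, Tdgf1 and Nodal stand above 100 TPM, Acvr1c and Inhba at 0, and the points of Nog and Lefty1 are the widest apart.

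WNT ligand genes were rare and WNT receptors common. Of 19 ligand genes 3 were on (Wnt6, Wnt9a and Wnt11), 14 were trace or rare and 2 silent, and the highest, Wnt6, was at 3.85, 3.81 and 3.73 TPM. All 15 Frizzled and co-receptor genes were on, led by Fzd5 (86.1), Ryk (66.8) and Fzd7 (51.9 TPM). Sfrp1, a secreted WNT inhibitor, was at 222, 219.9 and 214 TPM, above every ligand and receptor of the pathway listed. The transducer Ctnnb1 was at 588 ± 6.79 TPM, and the repressor Tcf7l1 at 159.8 ± 7.09 exceeded Tcf7 (84.1), Tcf7l2 (11.1) and Lef1. The target gene Axin2 was at 3.14, 3.25 and 3.62. In the Hedgehog pathway too, Smo (20.1) and Ptch1 (18.4) were moderate and Shh (0.0505), Dhh (0.105) and Ihh (0.152 TPM) were trace or rare. Of 29 other receptor tyrosine kinase genes, 16 were on, near the 55.4% of all protein-coding genes. Tyro3 (113), Kit (54.1) and Ddr1 (41.1 TPM) led them. Pdgfra, Pdgfrb, Kdr and Csf1r were under 0.4 TPM. Of 48 nuclear receptors, 21 were on. Esrrb and Nr0b1 (328 TPM), both of the pluripotency network, led them, and steroid receptors Esr1 and Pgr were under 0.4 TPM.

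At several steps of glycolysis 1 isozyme gene made up nearly all of the message. Slc2a3, a high-affinity glucose transporter, was at 711, 708 and 723 TPM and Slc2a1 at 212 ± 4.63, while the liver and beta-cell transporter Slc2a2 was silent. Aldoa made up 98.7% of the summed TPM of the aldolase genes, Pkm 99.9% of pyruvate kinase and Eno1 89.9% of enolase. The liver isozyme gene Pklr was rare. Hexokinase was shared between Hk2 (71.8%) and Hk1 (27.9%), and the phosphofructokinase genes Pfkp, Pfkm and Pfkl held 39.1%, 31.3% and 29.6%. In lactate dehydrogenase the heart-type gene exceeded the muscle type. Ldhb was at 1031, 1035 and 1030.4 TPM and Ldha at 335, 336 and 336, a ratio of 3.08 ± 0.0072, or 2.03 with the longest transcript as length. Counts, which are not scaled to length, gave 45969 for Ldhb and 31506 for Ldha. The ratio of Hk2 to Hk1 fell likewise from 2.57 to 1.39, and Pfkl moved from below Pfkm (0.947) to above it (1.46).

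Enzymes that feed one-carbon units and non-essential amino acids were mostly moderate to high. Of 6 threonine and glycine genes 5 were high and 1 moderate, and of 14 serine and folate genes 7 were high, 6 moderate and 1 low. Tdh, threonine dehydrogenase, on which mouse embryonic stem cells depend for glycine and acetyl-CoA, was at 778, 753 and 769.6 TPM. The glycine cleavage genes Amt (419), Gcsh (222) and Gldc (188 TPM) were high too, as were Shmt2 (558), Phgdh (359) and Psat1 (337 TPM) of serine synthesis and folate use. Asns, asparagine synthetase, was at 1009, 975 and 1007 TPM, the highest of the amino acid enzymes listed. The widely expressed methionine adenosyltransferase gene Mat2a was at 349 ± 3.66 TPM and its liver form Mat1a was silent. Of the 8 methionine genes 3 were high, 2 moderate, 1 low, 1 rare and 1 silent. Among liver urea cycle and amino acid enzymes, Ass1, which makes argininosuccinate, was at 289, 304 and 300.0 TPM and Asl at 29.5. The other 8 were under 0.3 TPM, and 4 of them, Hpd, Otc and Tdo2 included, were silent. The mitochondrial Pck2 was at 90.4 TPM and the cytosolic Pck1 silent. Cox6b2, a form of a cytochrome oxidase subunit best known from testis, was at 291 ± 5.04 TPM beside its general form Cox6b1 at 596. Cox8b, the heart and muscle form, was silent while Cox8a stood at 1179.9 ± 2.19.

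**Figure D3:**
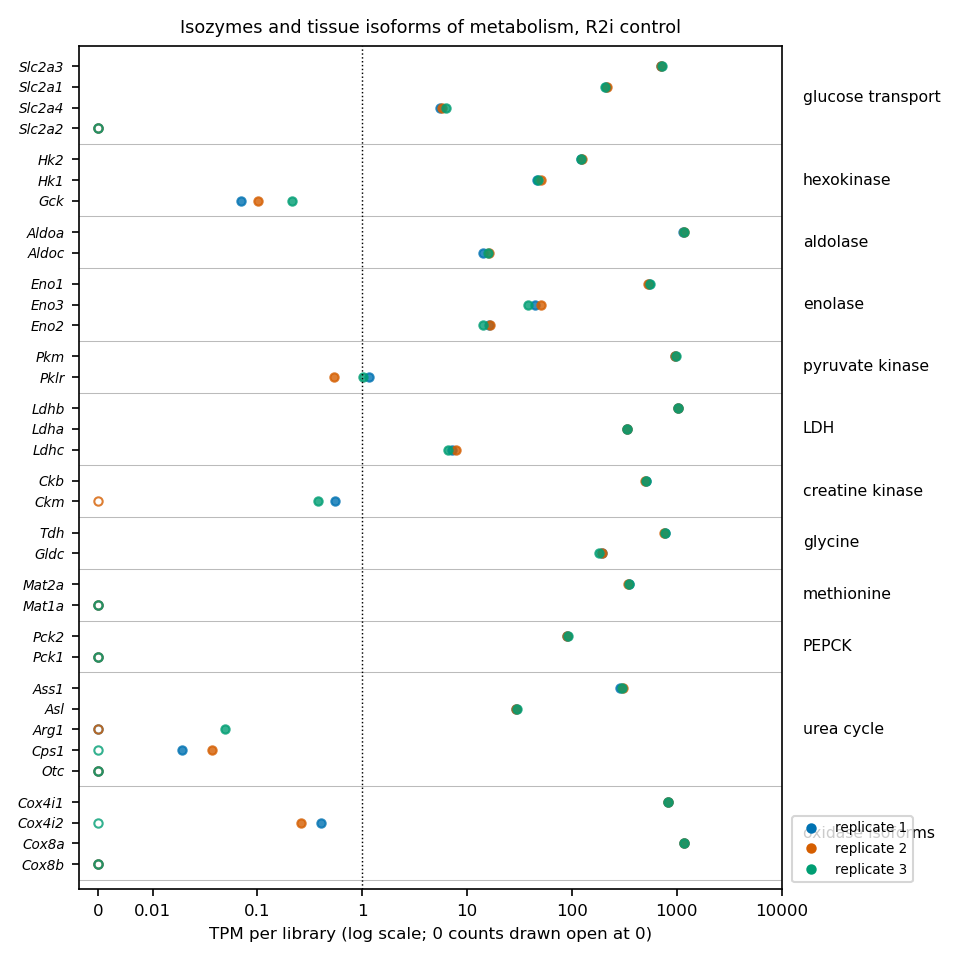
TPM (log axis) of isozymes and tissue isoforms in each of the 3 R2i control libraries, one point per library; genes without a count in a library are drawn open at 0 and the dotted line marks 1 TPM. In most families 1 or 2 members lie above 100 TPM and a liver or muscle form (Slc2a2, Mat1a, Pck1, Otc, Cox8b) lies at 0.

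Of the enzymes of DNA methylation, maintenance and cofactor genes were high, and of the de novo enzymes Dnmt3b was high and Dnmt3a moderate. Dnmt3l, the cofactor of de novo methylation, was at 619, 604 and 602 TPM and Uhrf1, which guides the maintenance enzyme Dnmt1 (236 ± 1.57), at 706 ± 1.39. Dnmt3b was at 158, 156 and 157 TPM and Dnmt3a at 14.8, 16.0 and 15.9, a ratio of 10.1 ± 0.531 (6.94 with the longest transcript as length). Tet1 was at 91.3, Tet2 at 33.9 and Tet3 at 4.22 TPM. All 23 Polycomb genes were on, 10 of them high. Among the cell cycle genes the cyclin D set was uneven. Ccnd1 was at 96.6, 97.8 and 94.9 TPM, Ccnd3 at 64.7, and Ccnd2 at 0.181, 0.216 and 0.197. The mitotic cyclins Ccnb2 (502), Ccnb1 (404) and Ccna2 (290.2) and the kinase Cdk4 (684 TPM) were high, and Cdk6 was at 5.72. All 6 MCM helicase genes lay between 329 (Mcm2) and 563 (Mcm5) TPM. Cdkn2a, the gene of the p16 and p19 growth inhibitors, was at 48.4, 51.3 and 48.9 TPM.

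At the cell surface and in the cytoskeleton, epithelial and stem cell genes led. The tetraspanin genes Cd9 (576 ± 9.58) and Cd81 (439 ± 2.92 TPM) and the adhesion gene Epcam (313 ± 8.15) were high, as was Alpl, the alkaline phosphatase used to stain these cells, at 179 ± 5.52 TPM. Cd44 was rare with 15, 13 and 2 counts, replicate 3 being the lowest. Of 25 integrin genes 13 were on, and Itgb1 (155 ± 1.31) led, with its laminin-receptor partner Itga6 at 91.1, 90.3 and 86.6 TPM. The lamin gene Lmnb1 was at 628 ± 4.81 TPM and the intermediate filament genes Vim, Krt8 and Krt18 were at 67.0, 33.8 and 30.6. Of 44 collagen genes 13 were on, and Col18a1 of basement membranes was the highest at 135 ± 1.00 TPM. Among regulators of apoptosis, Trp53 (359.9), Bax (340, pro-apoptotic) and Mcl1 (335 TPM, anti-apoptotic) stood close together and Bcl2 was rare with 14, 20 and 29 counts. The long non-coding RNA genes Gas5 (316 ± 8.38), Lncenc1 (299 ± 5.79) and Malat1 (262, 298 and 298 TPM) were as high as many coding genes, and Malat1 was lowest in replicate 1. Gm42418, annotated as a lincRNA, read higher at 4118, 4018 and 4719 TPM. Only 5.05% of its 50-base stretches occur in no other annotated gene, so that value is uncertain.

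Markers of embryonic stem cells were high and those of most other cell types low. All 10 stem cell markers were on, summing to 8231 to 8473 TPM in the 3 libraries. Of 9 fibroblast markers, which feeder cells would bring, Thy1 (6.16 TPM) was on, 5 were trace or rare and 3 (Col3a1, Lum and Twist2) silent, with a sum of 6.14 to 7.62 TPM. Col1a1 was at 0.711 and Col1a2 at 0.0170 TPM. The wider list of 16 fibroblast genes had 4 on and summed to 679 TPM, most of it from Fn1 (598) and Vim (67.0 TPM), which many cell types express. Cdh1, the epithelial cadherin, was at 348, 355 and 345 TPM and Cdh2 at 1.35, 1.41 and 1.69. Of 6 markers of the 2-cell-like state, 5 were silent and Zscan4d held 2 counts in all. Of 5 blood markers, the transcription factor genes Spi1 (6.73) and Gata1 (2.32, 2.17 and 3.00 TPM) were on, while Ptprc was at 0.00591, Hba-a1 had 1 count and Hbb-bt was silent. In bulk RNA a few cells with much RNA and many cells with little cannot be told apart.

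**Figure D4:**
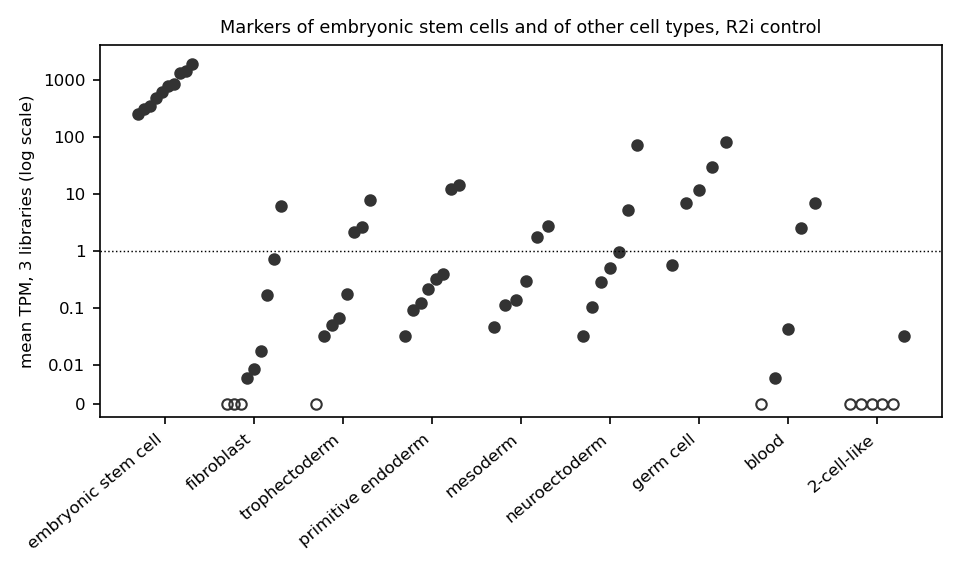
Mean TPM over the 3 R2i control libraries (log axis) of the markers of embryonic stem cells and of 8 other cell types, one point per gene, with silent genes drawn open at 0 and a dotted line at 1 TPM. The 10 stem cell markers lie above 250 TPM, and outside them 6 of the 54 other markers reach 10 TPM.

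Lineage genes ranged from silent to high, and few genes of mesoderm and primitive streak were on. Of the wider lists, 13 of 20 trophectoderm, 10 of 20 primitive endoderm, 10 of 18 neuroectoderm and 3 of 18 mesoderm and primitive streak genes were on. The share of all protein-coding genes that were on was 55.4%, and all of these lists but the last lay near it. T (brachyury), the first mesoderm factor, had 1 count in each library (0.0457 TPM). Cdx2, which specifies trophectoderm, had 0, 1 and 1 count. Gata6, which specifies primitive endoderm, was at 0.197, 0.235 and 0.201 TPM, and Sox1, a neural factor, at 4.99, 5.67 and 5.08. Of 6 mesoderm markers 2 were on, Gsc (2.67) and Tbx6 (1.74 TPM). Of 8 trophectoderm markers 3 were on, with Eomes highest at 7.86 TPM, and Tpbpa was silent. Other genes of the wider trophectoderm list were higher, Tfap2c at 127 ± 2.46, Plet1 at 48.9, 52.5 and 48.6 and Tead4 at 48.8, 52.0 and 46.9 TPM, and the list summed to 370 TPM. In primitive endoderm Sox7 (15.1, 14.7 and 13.7) and Gata4 (12.1 ± 0.866 TPM) were moderate while Gata6, Sox17 (0.395), Pdgfra (0.317), Afp (0.0319) and Ttr (0.0893) were rare or trace. The basement membrane genes that this lineage also uses were high, Sparc at 448 ± 6.36 and Lamc1 at 332 ± 5.59 TPM. Gata4 and Sox7 lie on chromosome 14 at 63198922 to 63271692 and 63943673 to 63950732.

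Some neural and germ cell genes were at moderate to high levels beside regulators of the same lineages that were rare. Olig2, a factor of motor neuron and oligodendrocyte precursors, was at 73.8, 69.9 and 69.1 TPM, while Pax6 (0.279) and Neurog2 (0.0312) were trace or rare. The neuronal cytoskeleton genes Tubb3 (209, 207 and 201) and Stmn2 (148, 148 and 141 TPM) were in the high class. These 3 genes did not overlap one another in level in any library, and their spread was within 4% of the mean. Of 22 germline genes 16 were on. Dmc1, the meiotic recombinase, was at 83.8, 84.2 and 86.4 TPM and Sycp3, of the synaptonemal complex, at 84.8, 80.9 and 79.4. Tex14 (71.3), Ddx4 (29.4) and Stra8 (6.96 TPM) were on too, while Prm1, Acrv1 and Figla were silent. Xist, the non-coding RNA that silences an X chromosome in female cells, had 11, 13 and 7 counts (0.0606 TPM), and the Y-linked genes Eif2s3y and Ddx3y were at 78.2 and 47.7 TPM.

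Families of developmental transcription factors differed in how many members were on. Of 39 HOX genes 7 were silent, 22 trace or rare and 9 on, with Hoxc13 highest at 9.55 TPM. None of 9 PAX genes was on, and Pax5 was highest at 0.946. Of 44 forkhead genes 22 were on, led by Foxh1, the partner of SMAD2 in nodal signalling, at 233 ± 5.49 TPM. That is near the 55.4% of all protein-coding genes that were on. Several large families of sensory receptors and secreted or cornified-tissue proteins were silent or nearly so. No count fell in any of 26 prolactin family or 18 type I interferon genes. Silent were 1116 of 1190 olfactory receptors (93.8%), 307 of 322 vomeronasal receptors (95.3%), 56 of 57 keratin-associated proteins and 38 of 42 beta-defensins, against 23.5% of all protein-coding genes. The exceptions included Olfr985 at 3.48 and Vmn1r53 at 3.26 TPM. Other secreted families were less uniform. Of 33 interleukin genes 15 were silent and 5 on, with Il34 (14.0), Il17b (13.9) and Il17d (11.7 TPM) the highest, and of 44 chemokine genes 32 were silent and 5 on, led by Cxcl14 (13.1) and Ccl27a (10.8 TPM). Of 12 Toll-like receptor genes 7 were silent, and Tlr2 was highest at 3.11 TPM.

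Between the 3 libraries the spread was small, though larger, taken over genes, than counting error alone gives. The spread of a gene is its coefficient of variation (CV, SD over mean) after TMM scaling, and counting error alone gives a CV of 1 over the square root of the mean count. Over the 12157 protein-coding genes that were on, the median CV was 3.50% against a median counting CV of 2.82%. The excess CV, which is what is left after counting error is taken out, had a median of 1.75%, and 36.2% of these genes showed none. A CV over 3 values scatters, so counting error alone also gives some genes an excess. The share of genes with an excess thus does not count the genes that vary beyond counting error. The common biological coefficient of variation from edgeR was 0.0259 over 14952 genes. Genes that share exon sequence with a gene on the other strand, among them Stat3 with Stat5a, Shmt2 with Ndufa4l2, Cdk4 with Tspan31 and Dnmt3l with Aire, may have lost or gained reads in counting. Of the protein-coding genes that were on, 55 differed by more than 2-fold in TMM-scaled CPM between some pair of libraries, and 1 of them, Gm6880, had a mean of 10 TPM or more. The log2(CPM + 1) of 14019 genes correlated across genes at 0.998 for each pair, a description in which genes are not independent. The libraries are not copies of one another, since the chi-square per gene was 2.27 to 2.93, where sampling alone gives about 1.

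Spread beyond counting error was seen in each class from low to abundant. Among protein-coding genes that were on, the median excess CV was 4.07% in the low class, 1.73% in the moderate, 1.21% in the high and 3.10% in the abundant. The high class had a median CV of 1.83% and the 97 abundant genes 3.14%, against counting CVs of 1.30% and 0.606%. Among them were the ribosomal protein genes, with a median CV of 3.54% for the 44 abundant ones and 3.41% for the 36 in the high class, against 1.83% for all 2056 high genes. In the high class, pluripotency genes lay lower at 1.46% for the 13 naive genes and 1.52% for the 10 general ones, and the 6 MCM genes at 0.830%. Their median counting CVs were lower too, at 0.965%, 1.14% and 0.713% against 1.30% for the class. The median excess CVs were 1.10%, 0.870% and 0.329% against 1.21%, so the naive genes lay close to the class. Lifr (0.177%), Spry2 (0.374%) and Cdh1 (0.586%) varied less than their counting error. The 10 genes with the largest excess CV among 9017 at 10 TPM or more were Gm6880, Fam25c (26.9%), Tstd1, Gulo, Nmb, Neurl2, Cited4, Ndufa4l2, Cbr3 and Gm14403 (18.8%). They held 197 to 869 counts in all, and Gm6880, at 10.7, 16.1 and 7.48 TPM, has 29.6% of its 50-base stretches to itself. For the 152 genes with over 10% excess CV, replicates 1, 2 and 3 were the farthest from the median in 46, 55 and 51, so no library stood apart in that tally. The chi-square per gene was higher in both pairs with replicate 2. It was 2.57 for replicates 1 and 2, 2.93 for 2 and 3, and 2.27 for 1 and 3. Many genes had no excess, so the 10 steadiest were taken by CV. They were Ubald2, Fbxo25, Ripk2, Bpnt1, Snx5, Tbc1d23, Spns1, Pigk, Rpn1 and Ccdc71, all under 0.1%, which is less than counting error and so says only that 3 values happened to fall close together.

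**Figure D5:**
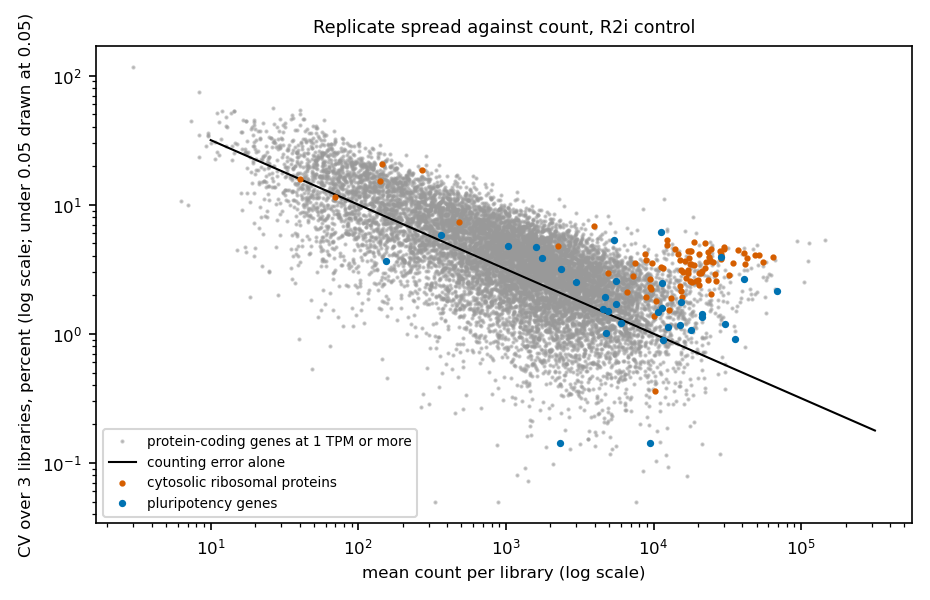
CV over the 3 R2i control libraries (log axis, percent; values under 0.05 are drawn at 0.05) against the mean count per library (log axis) for protein-coding genes that were on, with the line that counting error alone would give. Ribosomal protein genes mostly lie above the line, with a median CV of 3.54% in the abundant class, and pluripotency genes mostly lie closer to it.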

How the data were processed

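The tables deposited by the authors hold raw counts, whole numbers per gene with totals that differ between libraries. As tools, the submitters' processing notes list HTSeq 0.9.1, STAR 2.6.1, cutadapt 1.4.2 and CASAVA 1.8.2, besides DESeq2. They name GRCm38.p6 as build. Roles are not stated. The annotation release and the strand setting are not given in the sources used here. Rows naming no gene held 25.6% to 26.4% of the reads, with reads of several alignments alone at 16.7% to 17.6% of all reads, and were left out.

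Genes were matched to GENCODE release M21 on the same build (53360 of 53465). TPM used the summed exon length of each gene, so genes with overlapping or near-identical copies are uncertain. Spread was computed from TMM-scaled CPM with edgeR 4.0.16 in R 4.3.3, and the rest in Python 3.11.15. The spread computation was run on simulated counts whose set spread was larger than that found here, so that run says nothing of spreads this small. DESeq2 1.42.0 size factors, library totals, other lengths and thresholds, and leaving out each library were alternatives. No group was compared, so no test was run and no p-value is given. The deposited counts give a counting CV of 2.82% for the median gene that is on.

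The 101 gene lists, the markers and the named genes were chosen with earlier results of these data known. The text names the top member of a list, members at 10 TPM or more, and rare and silent examples, a fixed set of regulators, the 10 highest protein-coding genes and the 10 with the largest and smallest spread at 10 TPM or more. Within long lists not each member at 10 TPM or more is named, and some genes are not reported here.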

Additional observations from a re-analysis of the deposited data

How the results depend on the processing

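The counts of genes per class, of silent genes and of genes that were on stayed within 1.5 times under each alternative run: the longest transcript as length, nuclear genes only, 0.5, 2 TPM or 1 CPM as threshold, and leaving out each library. With the longest transcript as length, 6.64% of protein-coding genes changed class, and 7 of 69 named genes did, the 69 levels being 0.746 to 1.76 times those reported. The 100 genes with most counts took 12.6% of the counts on average, and 12.2% without mitochondrial genes. The median CV of 3.50% was 2.79% for genes at 10 TPM or more, 3.58% at a mean of 1 TPM or more and 5.29% for all genes with at least 15 counts. It was 2.81% to 2.90% on leaving out a library, since a CV over 2 values has a lower median. The common biological coefficient of variation of 0.0259 was 0.0230 to 0.0274 on leaving out a library, lowest without replicate 2. Scaling by library totals, DESeq2 size factors or TMM over all 6 libraries gave medians up to 3.55% and coefficients up to 0.0270. No paired analysis was possible because no groups were compared. Values under 0.1 TPM rest on a few counts and their order was not read.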
